A study of Mus musculus with 6 samples.

Results

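The inflammatory cytokine genes followed here were 10 rows of the deposited table of 52550: Il1a, Il1b, Il1rn, Il6, Tnf, Il10, Il18, Il33, Il1rl1 and Osm. Each was found by its gene symbol through the Ensembl identifier, and each matched a single row. The study profiled RNA from 6 hearts of C57BL/6 mice. Of these, 3 were wild type (WT) and 3 carried the genotype lncRNA-DRR-/- (KO), the loss of a long noncoding RNA. Mice of both groups were 10 weeks old. They had been operated on at 8 weeks, when the left anterior descending artery was tied for good, and all 6 hearts are labelled as infarcted, 2 weeks earlier. Hearts of sham-operated mice were not analysed here, so nothing is said of levels before infarction. The labels do not say how the knockout was made, nor whether scar, border and remote muscle were separated. The values are therefore taken as averages over the tissue sampled. The labels give no time of day, litter or sex either. P-values for KO against WT set the difference between genotypes against the spread between hearts of the same genotype. If time of day or litter differed between the genotypes, that could not be told apart from the genotype.

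Cytokines of this group carry the alarm and the repair signal after an infarct. Il1a and Il1b encode the agonists of the interleukin-1 receptor, and Il1rn encodes the antagonist that occupies the same receptor. Il1b and Il18 are made as precursors that caspase-1 cuts in the inflammasome. Il33 encodes a nuclear alarmin released by damaged stromal and endothelial cells. Its receptor is ST2, the product of Il1rl1, which is also made in a soluble form that acts as a decoy. Il6 and Osm encode cytokines that signal through the shared receptor subunit Il6st. Tnf encodes tumour necrosis factor, and Il10 a cytokine that restrains macrophages. Leucocytes that enter an infarct are a main source of several of them, and inflammation recedes as the scar forms.

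Il33 was the most abundant of the 10 transcripts, no difference between KO and WT hearts passed the test, and most of the genes lay near the limit of the sequencing. FPKM is the number of fragments per kilobase of transcript, scaled to library size. Averaged over the 6 libraries, Il33 stood at 11.2 FPKM, Il18 at 1.91 and Il1b at 1.57. Tnf (0.676), Il1rn (0.583), Il1rl1 (0.461), Il6 (0.295), Osm (0.211), Il1a (0.126) and Il10 (0.0427) followed. Of the 10 genes, 5 passed the filter on low values (0.5 FPKM or above in a minimum of 3 libraries): Il33, Il18, Il1b, Tnf and Il1rl1. None of these 5 was called at an adjusted p under 0.05 by limma, and 0 of the 5 reached an unadjusted p under 0.05. Of the 5, 4 lay lower and 1 higher in KO hearts (median log2 difference -0.15). Over the whole series 14656 genes were tested, of which 55 were called (0.375%; 0.273% raised and 0.102% lowered). An unadjusted p under 0.05 was reached by 8.48% of them, and by 4.68% with a lower level in KO hearts.

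**Figure D1:**
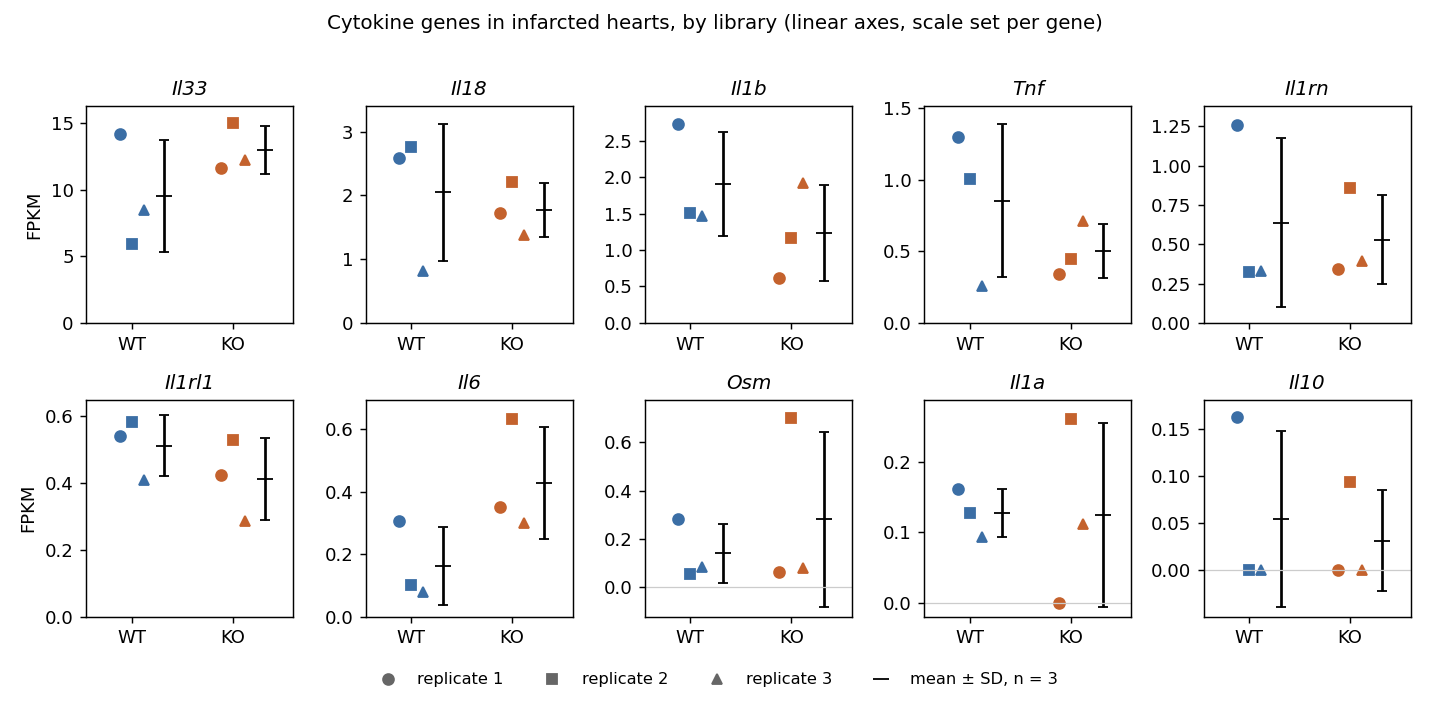
FPKM of the 10 cytokine genes in each library, on linear axes scaled to each gene and ordered by mean level. Points are single hearts (WT blue, KO orange, marker shape by replicate) and bars give the mean ± SD of 3 hearts. In each of the 10 panels the WT and KO points overlap.

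Depth sets what these values can show. The most frequent product of FPKM and length in single-transcript genes was taken as 1 fragment. By this measure libraries held about 5190000 to 9400000 fragments. On the Il33 transcript that amounts to about 112 to 339 fragments per library. Il1b had about 5.9 to 34.8 fragments, Tnf about 2.2 to 19.9, Il6 about 1.0 to 12.1 and Osm about 1 to 13. These fragment numbers use the longest protein-coding transcript of each gene. They are approximate, since the transcript length behind each deposited value is not given. Where a value rests on shorter transcripts, they are too high. Cardiomyocyte markers identified the tissue, with Myh6, the adult cardiac myosin heavy chain, between 1568 and 2814 FPKM. KO replicate 2 held the lowest Myh6 value and the lowest sum of the 9 cardiomyocyte markers (8216 FPKM). Of these markers, Nppa (1653 FPKM) and Myl7 (25.2 FPKM, against 4.80 or less elsewhere) were highest in that heart. Nppa and Myl7 were named outside the rule for named genes, after their values were seen. Whether the hearts differed in the part sampled was not tested. The 5 lung and thymus markers searched were listed at 0 in each library. Sex-linked genes set KO replicate 3 apart: Xist, expressed from the inactive X chromosome, was at 25.6 FPKM there and at 0.0742 or less elsewhere, while the Y-linked genes Eif2s3y, Uty and Kdm5d were listed at 0 only in that library. Results without it are printed for some genes, among them Il1rl1, Il1b, Il18, Il1rn and Nfkbia, and not for each.

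Il33, on chromosome 19 (29925114 to 29960718, plus strand, GRCm38), was measured best. It stood at 14.2, 5.91 and 8.49 FPKM in WT replicates 1 to 3 and at 11.7, 15.03 and 12.2 FPKM in KO replicates 1 to 3. WT replicates 2 and 3 lay below each KO heart, whereas WT replicate 1 lay within the KO range, so the groups overlapped. The means were 9.53 ± 4.23 FPKM in WT hearts against 12.97 ± 1.81 FPKM for KO (SD over 3 hearts each). On the scale of log2(FPKM + 0.5), after scaling of the libraries, the difference KO minus WT was 0.52 ± 0.26 (± SE here and for log2 differences fitted with limma below; limma adjusted p = 0.665, unadjusted p = 0.0814). Its 95% interval ran from -0.08 to 1.11, that is, from 0.944-fold to 2.16-fold. Leaving out either of 2 WT hearts moved this difference: without WT replicate 1 it was 0.78 (limma unadjusted p = 0.00539, adjusted p = 0.331), and without WT replicate 2 it was 0.24 (adjusted p = 0.982).

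Fibroblasts are cells known to hold IL-33. The 10 fibroblast and myofibroblast markers (Col1a1, Col3a1, Postn and others) summed to 2241, 1307 and 1160 FPKM in WT hearts against 1877, 2580 and 1367 FPKM in KO hearts. KO replicate 2 and WT replicate 1 held the highest sums and also the highest Il33 values, and WT replicates 2 and 3 the lowest of both. KO replicate 3 did not follow that order: its marker sum was near that of WT replicate 2, while its Il33 value lay above that of KO replicate 1. Of those markers 9 were higher in KO and 0 were called (median log2 difference 0.35). Endothelial markers summed to 310.3 to 327.4 FPKM in WT hearts against 280.2 to 358.8 FPKM in KO hearts. Of 7 tested, 3 were higher and 4 lower in KO hearts, with 0 called. Kdr was lower in each KO heart (-0.55 ± 0.13, limma adjusted p = 0.195) and Pecam1 higher in each (0.16 ± 0.11, limma adjusted p = 0.770). Of all tested genes 14.0% did not overlap, in either direction. The part of either cell type in the Il33 values was not tested. In tissue of mixed cell types, more cells of a type and more RNA per cell cannot be told apart.

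The reference gives Il33 a pair of transcription starts, and the gene total adds both. They are shown because Il33 had the highest level of the group and its reads cannot be assigned to either start. Il6, shown with them, is the gene whose difference is described below. Each window holds the 250 bases before a start (RefSeq, GRCm38.p6), written on the gene's strand, with capitals marking motif matches.
Il33, first start, chr19:29924863-29925112, plus strand: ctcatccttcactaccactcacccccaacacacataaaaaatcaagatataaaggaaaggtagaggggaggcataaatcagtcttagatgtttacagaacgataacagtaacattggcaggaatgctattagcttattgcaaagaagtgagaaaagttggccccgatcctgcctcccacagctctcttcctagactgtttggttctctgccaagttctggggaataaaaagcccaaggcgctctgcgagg
Il33, second start, chr19:29945540-29945789, plus strand: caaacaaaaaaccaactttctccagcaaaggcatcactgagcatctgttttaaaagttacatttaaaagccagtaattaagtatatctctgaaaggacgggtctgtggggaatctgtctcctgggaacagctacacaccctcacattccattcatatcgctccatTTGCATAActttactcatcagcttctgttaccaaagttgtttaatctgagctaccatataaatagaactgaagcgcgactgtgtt
Il6, chr5:30012864-30013113, plus strand: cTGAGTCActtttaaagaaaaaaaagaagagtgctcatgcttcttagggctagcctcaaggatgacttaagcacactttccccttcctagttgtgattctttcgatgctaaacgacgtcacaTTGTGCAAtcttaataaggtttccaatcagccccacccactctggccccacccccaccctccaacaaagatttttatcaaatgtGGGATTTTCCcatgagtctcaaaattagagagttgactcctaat
Searched on both strands were the kappaB motif of NF-kappaB, the AP-1 motif TGANTCA, the C/EBP motif TTNNGCAA and the STAT motif TTCNNNGAA. In the Il6 window the capitals mark, from left to right, an AP-1 match, a C/EBP match and a kappaB match. In the second Il33 window they mark a C/EBP match, and the first Il33 window held none of the 4 motifs. No matches overlapped in these windows. Among 32851 promoter windows of this length, 7.25% held the kappaB motif, 6.75% the AP-1 motif, 9.56% the C/EBP motif and 7.02% the STAT motif. RefSeq windows were found for 8 of the 10 genes, with 12 starts in all. Outside the printed windows, AP-1 matches were found before Il1a and the first Il1rn start, and a C/EBP match before the first Il1rl1 start. A match is a run of letters and shows no binding.

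Il1rl1, the ST2 receptor gene on chromosome 1 (40429570 to 40465415, plus strand), was low and even. It stood at 0.541, 0.583 and 0.408 FPKM in WT hearts, against 0.422, 0.527 and 0.285 FPKM in KO hearts. The groups overlapped, and KO replicate 3 held the lowest value. The log2 difference was -0.15 ± 0.21 (limma adjusted p = 0.897, 95% interval -0.63 to 0.33), and -0.05 without KO replicate 3. The gene has 5 transcripts in the annotation, and the row does not separate the soluble from the membrane form. Il33 exceeded Il1rl1 in each heart. The ratio of their FPKM values was 26.2, 10.1 and 20.8 in WT and 27.6, 28.5 and 42.9 in KO hearts. These plain ratios did not overlap (exact permutation test, two-sided p = 0.1, the smallest that 3 against 3 hearts allow). On the log2(FPKM + 0.5) scale the same pair overlapped (exact permutation p = 0.2). Plain ratios were examined after the values were seen. How often plain ratios of other gene pairs separate in this way was not tested.

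Il1b and Tnf, both typical of activated macrophages, had lower means in KO hearts, within the spread between hearts. Il1b, on chromosome 2 (129364570 to 129371139, minus strand), stood at 2.73, 1.51 and 1.47 FPKM in WT hearts, against 0.621, 1.16 and 1.92 FPKM in KO hearts. KO replicate 3 lay above WT replicates 2 and 3, and the other KO hearts lay below every WT heart. The means were 1.90 ± 0.715 FPKM in WT hearts against 1.23 ± 0.653 FPKM for KO (SD over 3 hearts each). The log2 difference was -0.49 ± 0.31 (limma adjusted p = 0.750, 95% interval -1.21 to 0.23). It was -0.78 without KO replicate 3 (limma unadjusted p = 0.024, adjusted p = 0.442), -0.23 without KO replicate 1 and -0.30 without WT replicate 1.

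Tnf, on chromosome 17 (35199381 to 35202007, minus strand), stood at 1.29, 1.00 and 0.260 FPKM in WT hearts, against 0.343, 0.448 and 0.710 FPKM in KO hearts. WT replicate 3, the shallowest library, held the lowest value of all 6, with about 2.2 fragments. The log2 difference was -0.34 ± 0.33 (limma adjusted p = 0.849, 95% interval -1.12 to 0.44). Without WT replicate 3 it was -0.70 (limma unadjusted p = 0.0282, adjusted p = 0.585). If WT replicate 1, WT replicate 2 or else KO replicate 3 was dropped, the gene no longer passed the filter.

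Il18, on chromosome 9 (50554827 to 50581840, plus strand), gave no stable direction. It stood at 2.58, 2.76 and 0.809 FPKM in WT hearts, against 1.72, 2.22 and 1.39 FPKM in KO hearts. The KO hearts lay inside the range of the WT hearts, which WT replicate 3 widened downwards. The log2 difference was -0.06 ± 0.33 (limma adjusted p = 0.984, 95% interval -0.84 to 0.73). It turned to 0.10, 0.19 and 0.06 without WT replicate 1, WT replicate 2 and KO replicate 3, and fell to -0.45 without WT replicate 3.

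**Figure D2:**
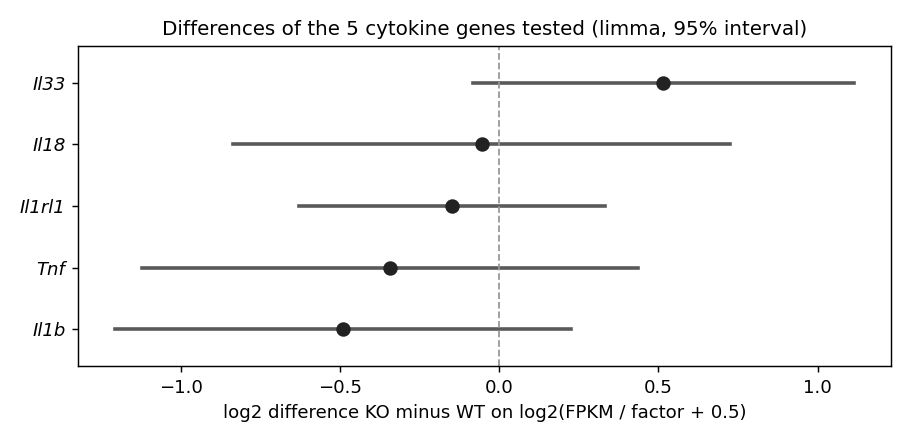
Log2 differences KO minus WT of the 5 cytokine genes that passed the filter, on log2(FPKM / factor + 0.5), where the factor is the scaling factor of a library. Points are limma estimates from 3 against 3 hearts and lines their 95% intervals, each of which includes 0; Il33 lies highest (0.52) and Il1b lowest (-0.49).

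Il6 was the gene of the group with the least overlap between genotypes, at levels too low for the main test. Il6, on chromosome 5 (30013114 to 30019981, plus strand), stood at 0.306, 0.103 and 0.0793 FPKM in WT hearts, against 0.351, 0.633 and 0.2998 FPKM in KO hearts. As deposited, WT replicate 1 lay just above KO replicate 3. After scaling the order of those 2 libraries turned (0.285 against 0.308), so that each KO heart lay above each WT heart. The difference of mean log2 values was 0.49 (exact permutation test, two-sided p = 0.1). Among the 10 genes, Il6 was the 1 without overlap after scaling, against 14.0% of all tested genes (6.53% with KO above WT) and 13.6% of genes at a filter of 0.1 FPKM (6.28% with KO above WT). At that lower filter, which 8 of the 10 genes passed, limma gave Il6 a log2 difference of 0.49 ± 0.20 (unadjusted p = 0.0431, adjusted p = 0.591). At that filter 0.269% of 18237 genes were called and 8.14% had an unadjusted p under 0.05, with 0 and 1 of the 8 cytokine genes among them. In all, about 9.6 fragments in WT and 22.7 in KO hearts lie behind these values. With 0.1 or 1 as the added constant the log2 difference was 1.07 or 0.30, so its size depends on that constant. With 1 library left out the log2 difference of Il6 ran from 0.36 to 0.62.

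Osm, on chromosome 11 (4236420 to 4241026, plus strand), was high in a single heart of each genotype. It stood at 0.281, 0.0553 and 0.0848 FPKM in WT hearts, against 0.0625, 0.701 and 0.0809 FPKM in KO hearts. Apart from WT replicate 1 and KO replicate 2, each value corresponds to about 1 fragment. The mean log2 difference of 0.21 (exact permutation p = 0.7) became -0.13 without KO replicate 2. Il6 minus Osm, the balance of those 2 cytokines on the log2 scale, was 0.05 ± 0.07 in WT and 0.34 ± 0.37 in KO hearts (SD, n = 3; exact permutation p = 0.4). The difference of 0.29 between genotypes became 0.15 without KO replicate 1 and 0.49 without KO replicate 2.

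Il1rn, the antagonist gene on chromosome 2 (24336853 to 24351494, plus strand), followed the same hearts. It stood at 1.25, 0.326 and 0.327 FPKM in WT hearts, against 0.341, 0.854 and 0.394 FPKM in KO hearts. WT replicate 1 and KO replicate 2 again held the high values, and the other 4 hearts lay close together. The mean log2 difference was -0.07 (exact permutation p = 1.0), and it changed sign without WT replicate 1, KO replicate 1 or KO replicate 3 (0.26, 0.05 and 0.0069). The Il1b transcript exceeded that of Il1rn in each heart. The FPKM ratio of Il1b to Il1rn was 2.17, 4.64 and 4.49 in WT and 1.82, 1.36 and 4.87 in KO hearts. On the log2(FPKM + 0.5) scale Il1b minus Il1rn was 1.14 ± 0.24 in WT and 0.72 ± 0.63 in KO hearts (SD, n = 3; exact permutation p = 0.4). The difference of -0.42 between genotypes became -0.21 without KO replicate 2, -0.27 without KO replicate 1 and -0.79 without KO replicate 3.

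Il1a, on chromosome 2 (129299610 to 129309972, minus strand), and Il10, on chromosome 1 (131019845 to 131024974, plus strand), were at the limit of detection. Il1a stood at 0.162, 0.127 and 0.0934 FPKM in WT hearts, and was listed at 0, 0.262 and 0.112 FPKM in KO hearts, from about 0 to 4.2 fragments each. Il10 stood at 0.162 FPKM in WT replicate 1 and 0.0935 FPKM in KO replicate 2, worth about 2.0 fragments and 1.0 fragment. It was listed at 0 in the other 4 libraries. A count of 0 allows up to 3 fragments, which is 0.288 and 0.441 FPKM of Il10 in WT replicates 2 and 3 and 0.325 and 0.333 FPKM in KO replicates 1 and 3. These limits cover counting error alone. No difference in either gene was detectable at this depth (exact permutation p = 0.8 for Il1a and 1.0 for Il10).

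The order of the levels held in each library at 2 steps. Il33 lay above Il18, and Il1b above Tnf, in 6 of 6 libraries (mean log2 differences 2.29 ± 0.68 and 0.81 ± 0.37, SD over 6 libraries). Either step gave an exact permutation p of 0.0312, the smallest that 6 paired libraries allow, and an adjusted p of 0.141 over 9 neighbouring pairs. The genes were ordered by their means over these same 6 libraries, which fixed the direction tested. These p-values are therefore no independent test of the order. The other 7 neighbours changed order between libraries, with the higher of the pair ahead in 3 or 4 of 6. Il18 and Il1b, for example, each led in 3 libraries. Of 5 gene pairs set for comparison, that of Tnf with Il10 could not be judged, since Il10 was listed at 0 in 4 libraries. Of the other 4 (Il1b with Il1rn, Il1rl1 with Il33, Il1b with Il18, Il6 with Osm), 0 separated the genotypes on the log2(FPKM + 0.5) scale (exact permutation p from 0.2 to 0.4, adjusted p = 0.5 for each over the 5). Single hearts moved these differences. Il1rl1 minus Il33 differed by -0.66 between genotypes and by -0.33 without WT replicate 2. Il1b minus Il18 differed by -0.44, and by -0.13 to -0.84 with 1 library left out.

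WT replicate 1 and KO replicate 2 held most of the high values. WT replicate 1 was the highest WT heart for 8 of the 10 genes, and KO replicate 2 the highest KO heart for 8 of the 10, with 6 genes in common. The exceptions were Il18 and Il1rl1, highest in WT replicate 2, and Il1b and Tnf, highest in KO replicate 3. The same 2 hearts led their groups in summed fibroblast markers (above) and in summed monocyte and macrophage markers, with 1309 FPKM in WT replicate 1 and 988.5 FPKM in KO replicate 2. The 10 genes share their libraries, so these counts describe 2 hearts and are no replicated result. These hearts also had the 2 deepest libraries (about 9400000 and 8160000 fragments) and the highest scaling factors (1.075 and 1.062). The counts use FPKM before scaling, and Il1a, Il10 and Osm rest on few fragments. The part of depth was not tested, nor was the share of all genes highest in these hearts.

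**Figure D3:**
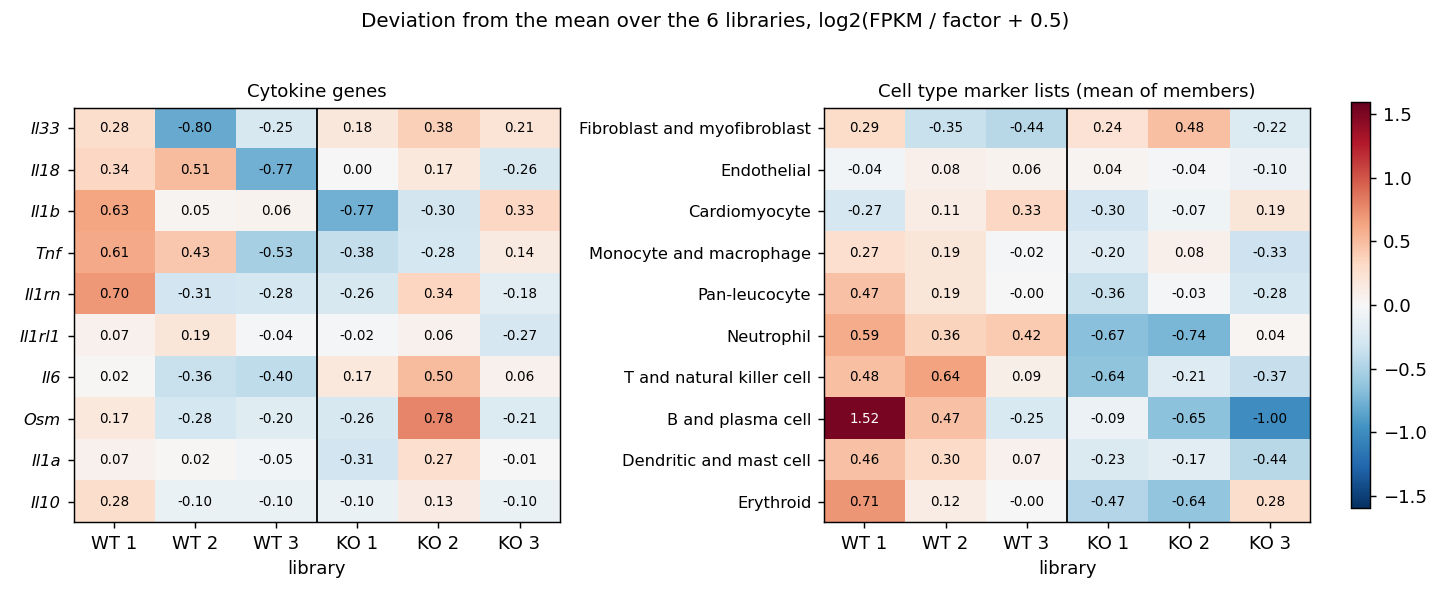
Deviation of each library from the mean over the 6 libraries, in log2(FPKM / factor + 0.5), for the 10 cytokine genes (left) and for the mean of the tested members of 10 marker lists (right). Osm (0.78), Il6 (0.50) and Il33 (0.38) peak in KO replicate 2 and Il1rn (0.70), Il1b (0.63) and Tnf (0.61) in WT replicate 1, while the neutrophil list is above 0 in the 3 WT libraries and below 0 in KO replicates 1 and 2.

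Leucocyte markers mostly had lower mean levels in KO hearts. The 4 pan-leucocyte genes (Ptprc, Cd52, Coro1a and Laptm5) had log2 differences below 0, with 0 called, and summed to 51.99 to 76.85 FPKM in WT hearts against 42.02 to 64.77 FPKM in KO hearts. Of 15 monocyte and macrophage markers 12 were lower and 0 were called (median log2 difference -0.31, sums of 756.5 to 1309 FPKM in WT hearts against 720.9 to 988.5 FPKM in KO hearts). The markers of smallest p were Ccr2, a receptor of recruited monocytes, Fcgr1 and Lyve1, at -1.07 ± 0.22, -0.78 ± 0.22 and 0.48 ± 0.16 (limma adjusted p = 0.144, 0.306 and 0.434). Of 9 tested neutrophil markers 9 were lower (median -0.81, sums of 61.08 to 84.8 against 23.09 to 43.9 FPKM). S100a8 alone of them was called (-1.24 ± 0.18, limma adjusted p = 0.0467), a call that ended when any 1 library was left out, without scaling, at lower filters and with a replicate block (adjusted p from 0.0558 to 0.192). Markers of T and natural killer cells (5 tested, median -0.85), B and plasma cells (6, -1.52), dendritic and mast cells (8, -0.59) and red cells (5, -0.56) also had medians below 0, with 0 called. The median of all tested genes was -0.004, and 50.7% lay below 0. S100a9 and Mmp8 differed by -1.38 ± 0.31 and -1.05 ± 0.21 (limma adjusted p = 0.178 and 0.129). No defining marker of these lists was listed at 0 in all 6 libraries. The part of these cells in the cytokine values was not tested.

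Set against leucocyte content, Il33 was the gene of the 5 tested whose libraries separated. Il33 minus Ptprc, the gene of the leucocyte antigen CD45, was 1.40, 0.74 and 1.55 in WT and 2.27, 2.07 and 2.33 in KO hearts on the log2 scale. Il33 minus the mean of the macrophage list was likewise higher in each KO heart (-1.03 ± 0.52 in WT, -0.22 ± 0.13 in KO, SD, n = 3). That difference of 0.81 fell to 0.52 without WT replicate 2, and the difference relative to Ptprc of 0.99 to 0.75. Both gave the smallest exact permutation p (0.1), with an adjusted p of 0.5 over 10 comparisons. The background for such a pattern is wide: relative to Ptprc, 29.1% of all tested genes lay higher in each KO heart, and relative to the macrophage list 24.3%. Il1b minus Ptprc was -0.79 ± 0.14 in WT and -0.80 ± 0.63 in KO hearts (exact permutation p = 1.0). Tnf minus Ptprc was -1.68 ± 0.35 and -1.54 ± 0.42 (exact permutation p = 0.8).

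In the lists of receptors and signalling genes of these cytokines 0 tested genes were called by limma. With the genes that cytokines induce added, of 138 distinct genes in 8 pathway lists 96 were tested, of which 1 rose (Cebpd) and 0 fell. The median log2 difference was -0.05, with 54 genes lower and 42 higher. Tnfrsf1a, the main receptor of TNF, stood at 37.2 ± 3.03 FPKM in WT hearts against 38.8 ± 7.93 FPKM in KO hearts (SD, n = 3). Il6st stood at 20.8 ± 0.626 and 18.3 ± 3.33 FPKM, and Il1r1, the signalling receptor of IL-1, at 8.97 ± 2.29 and 9.61 ± 3.44 FPKM. These 3 receptor genes lay well above their ligands in each heart and were not called (limma adjusted p = 0.953, 0.790 and 0.958). They were picked for their role as receptors and not by the rule for named genes.

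In the IL-1 and IL-36 list 0 of 14 tested genes were called, and 7 were higher and 7 lower. Irak2, a kinase of the receptor complex, had the smallest p, at 2.61 ± 0.793 FPKM in WT hearts against 4.08 ± 0.995 FPKM with KO (limma adjusted p = 0.538). The kinases Irak1 and Irak4 differed by 0.23 ± 0.13 and -0.18 ± 0.16 (limma adjusted p = 0.718 and 0.837). In the IL-18 and IL-33 list the 4 tested genes had differences below 0, with 0 called. Il18bp, which encodes the soluble protein that captures IL-18, stood at 4.19, 4.80 and 3.86 FPKM in WT hearts against 2.64, 3.58 and 3.02 FPKM in KO hearts. These did not overlap (log2 difference -0.41 ± 0.14, limma adjusted p = 0.434). Of all tested genes 14.0% did not overlap, in either direction. Il1rap, the coreceptor shared by IL-1 and IL-33, differed by -0.14 ± 0.16 (limma adjusted p = 0.864). Of 11 tested inflammasome genes 0 were called, with a median of -0.19. P2rx7, the ATP-gated channel that triggers the inflammasome, differed by 0.44 ± 0.17, and Gsdmd, the pore through which IL-1 leaves the cell, by -0.29 ± 0.13 (limma adjusted p = 0.520 and 0.592). Txnip, a thioredoxin-binding protein, differed by 0.41 ± 0.17 (limma adjusted p = 0.586).

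The IL-6 and oncostatin M list held 16 tested genes, of which 0 were called and 11 were lower. Socs1, a feedback inhibitor of cytokine receptors, stood at 2.29, 1.86 and 2.23 FPKM in WT hearts, against 0.703, 0.832 and 0.954 FPKM in KO hearts. Each KO heart lay below each WT heart, with a log2 difference of -0.97 ± 0.16 (limma adjusted p = 0.0736). Such a lack of overlap, in either direction, was seen in 14.0% of all tested genes. Tyk2, a kinase that carries cytokine signals, differed by -0.32 ± 0.16 (limma adjusted p = 0.661). Socs3, the feedback inhibitor tied to Il6st, stood at 5.45 ± 1.63 FPKM in WT hearts against 4.51 ± 0.646 FPKM with KO (limma adjusted p = 0.834). It was named outside the rule, for its role.

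In the TNF list 0 of 24 tested genes were called and 16 were lower. Nfkbia, the inhibitor of NF-kappaB and itself a target of it, stood at 26.2, 26.5 and 23.8 FPKM in WT hearts, against 58.2, 55.3 and 41.9 FPKM in KO hearts. Its log2 difference of 1.01 ± 0.15 missed the threshold (limma adjusted p = 0.0501), and its call depended on the setting. With upper-quartile scaling, a filter at 1 FPKM, a robust fit, library weights or KO replicate 3 left out, it was called (adjusted p from 0.0145 to 0.0461). The adjusted p was 0.0967 with a replicate block and 0.124 without a filter. Without WT replicates 1, 2 or 3 or KO replicate 1 it was 0.169, 0.203, 0.178 and 0.176, and 0.130 without KO replicate 2. Traf2, which encodes an adaptor of the TNF receptors, and Birc2 differed by -0.39 ± 0.15 and -0.35 ± 0.13 (limma adjusted p = 0.510 and 0.507).

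Of 7 tested genes in the IL-10 list 0 were called and 6 were lower (median -0.30). Bcl3, an atypical inhibitor of NF-kappaB, differed by -0.60 ± 0.22 and Il10rb, a receptor subunit of IL-10, by -0.30 ± 0.13 (limma adjusted p = 0.486 and 0.608). Of 29 other interleukin genes 12 were listed at 0 in each library and 6 passed the filter, with 0 called. Among those 6, Il16 differed by -0.49 ± 0.20, Ebi3, a subunit of IL-27 and IL-35, by -0.43 ± 0.19 and Il15 by 0.17 ± 0.19 (limma adjusted p = 0.546, 0.619 and 0.860).

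Genes that cytokines are known to induce did not move in one direction. Of 25 tested, 15 were higher and 10 lower, with 1 called (median log2 difference 0.07). Cebpd, a transcription factor gene induced by IL-6, IL-1 and glucocorticoids, stood at 11.3, 9.23 and 10.3 FPKM in WT hearts, and rose to 34.7, 37.7 and 27.7 FPKM in KO hearts. Its log2 difference was 1.66 ± 0.14 (limma adjusted p = 0.0051). Lcn2, a neutrophil and acute-phase gene, stood at 2.19 ± 0.541 FPKM in WT hearts against 0.995 ± 0.169 FPKM in KO hearts (SD, n = 3; log2 difference -0.82 ± 0.18, limma adjusted p = 0.187).

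**Figure D4:**
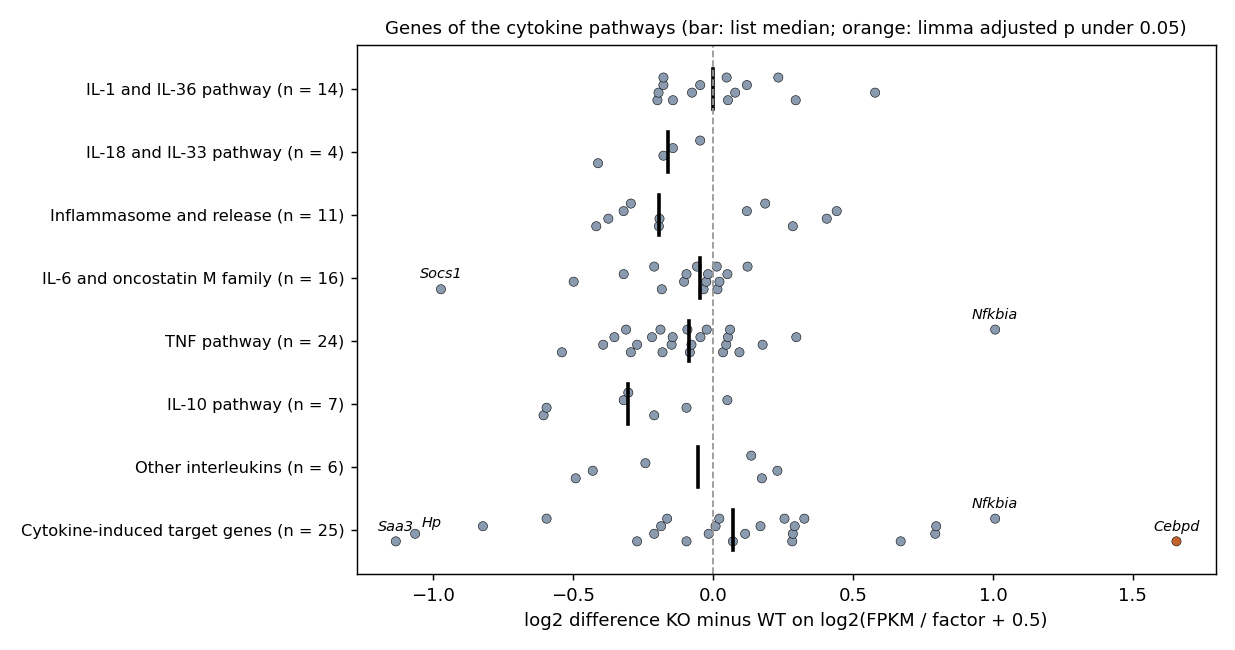
Log2 difference KO minus WT of each tested gene in the 8 cytokine pathway lists (one point a gene, list medians as black bars), with genes beyond 0.9 in either direction named. Medians lie between -0.30 and 0.07, and Cebpd at 1.66 is the 1 gene past an adjusted p of 0.05; Nfkbia appears in 2 lists.

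Genes with the pattern most like a cytokine gene were sought for the 3 tested genes that varied most: Il1b, Tnf and Il18. Likeness was the root mean square difference between deviations from the own mean over the 6 libraries, in log2 units, over 11343 or 11344 protein-coding genes. Nearest to Il1b were Nppb, the gene of B-type natriuretic peptide (0.15), Amigo1 (0.16) and Alas2, a haem synthesis gene of red cells (0.17). Nppb stood at 851, 670.9 and 589.4 FPKM in WT hearts, against 396.4, 532.6 and 715.2 FPKM in KO hearts, lowest in KO replicate 1 and highest in WT replicate 1 like Il1b. Nearest to Tnf were Olfr1033 (0.089), Lpcat1 (0.11) and Ltc4s, the leukotriene C4 synthase gene (0.13). Nearest to Il18 were Lmo2, a transcription cofactor of blood and endothelium (0.11), and Myl6b (0.13). With 6 libraries and this many genes, close matches are to be had by the search itself.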

How the data were processed

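RNA-seq values of 6 infarcted hearts (3 WT, 3 KO) were used as deposited. The deposited table is titled as counts, but its unit was read as FPKM from the values: 37.2% to 40.4% of values in a library are not whole, and value times transcript length falls on multiples of 1 step per library in genes with a single transcript. No count model was run. Bowtie 0.12.2 and the builds mm8 and mm9 appear, with no role, per the submitters' processing notes. Which quantifier, annotation and strand setting were used is not given in the sources used here. Row identifiers were matched to GENCODE M21 (GRCm38; 52403 of 52550 rows); coordinates are that build's. All 37 mitochondrial genes are listed at 0, so a 0 is reported as listed.

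Genes with at least 0.5 FPKM in 3 or more libraries were scaled by trimmed means of log2 ratios (trims 0.3 and 0.05, factors 0.9491 to 1.075). The model of limma 3.58.1 (R 4.3.3) was then fitted to log2(FPKM / factor + 0.5) (genotype alone, mean-variance trend, two-sided, Benjamini-Hochberg over all tested genes, calls at 0.05). This scale understates changes of low genes. The script was tested on simulated data. Members under the filter, pairs of genes and levels relative to markers were compared by exact permutation. Genes and lists were chosen with earlier results of these data known. The text names the 10 cytokine genes and, by rule, every called gene and the 3 of smallest p of each pathway and marker list; exceptions are marked. Of the marker genes so found it prints those of the macrophage and neutrophil lists, and some of other lists. Some genes that the rule gave are not reported here. The IL-36 genes were matched under older names, and Il37 matched none. Limits for a 0 use 3 fragments. The alternatives numbered 17.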

Additional observations from a re-analysis of the deposited data

How the results depend on the processing

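No cytokine gene was called in those of the 17 alternatives that tested it (other scalings, filters, added constants, a robust fit, library weights, a replicate block and each library left out), and Cebpd was called in each. Over all genes the 55 calls became 20 without a filter and 131 with library weights, and 12 to 36 with 1 library left out. Deviations of same-numbered hearts correlated at 0.0076, -0.036 and 0.18, and WT replicate 1 correlated best with KO replicate 2 (0.19). With so few hearts these correlations cannot tell whether replicate numbers pair the hearts. With the replicate block 42 genes were called, 0 of them cytokine genes. In the TNF list 1 gene (Nfkbia) and among cytokine-induced genes 2 were called with upper-quartile scaling, a filter at 1, a robust fit or library weights, and library weights also called 1 gene of the IL-6 list (Socs1). The median of the other interleukins was -0.24 with a filter at 1, and that of the inflammasome list -0.072 with library weights. With 1 added to each FPKM, Il1b minus Ptprc turned to 0.035 and Tnf minus the macrophage list to 0.017. Leaving out 1 library gave -0.17 to 0.12 for Il1a, -0.26 to 0.26 for Il1rn, -0.13 to 0.077 for Il10, -0.45 to 0.19 for Il18 and -0.13 to 0.39 for Osm. The same step gave -0.38 to 0.19 for Il1b minus Ptprc, -0.57 to 0.044 for Il1b minus the macrophage list and -0.10 to 0.32 for Tnf minus Ptprc. It gave -0.31 to 0.12 for Tnf and -0.069 to 0.46 for Il18 minus the macrophage list. List medians ranged from -0.22 to -0.058 (inflammasome), -0.30 to -0.14 (IL-10), -0.41 to 0.13 (other interleukins) and -0.0094 to 0.20 (cytokine-induced genes). Calls ranged from 0 to 1 in the TNF list and 1 to 2 among cytokine-induced genes. The cause was not tested. Cytokine genes that miss a filter have no limma value there: Tnf and Il1rl1 at a filter of 1 and with several single libraries left out.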

Other observations

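Genes outside the rule for named genes were picked after their values were seen. Tnfaip6, whose product binds hyaluronan in inflamed tissue, stood at 2.14, 1.58 and 1.23 FPKM in WT hearts against 3.45, 4.08 and 2.20 FPKM in KO hearts (log2 difference 0.80 ± 0.22, limma adjusted p = 0.296). Ptgs2, the inducible cyclooxygenase gene, stood at 0.907, 0.466 and 0.459 FPKM in WT hearts against 0.743, 1.82 and 1.29 FPKM with KO (limma adjusted p = 0.522). Saa3 and Hp, which encode acute-phase proteins, lay lowest among the cytokine-induced genes, with log2 differences of -1.13 ± 0.67 and -1.06 ± 0.50 (limma adjusted p = 0.730 and 0.643) and overlapping groups. Il23a, a subunit of IL-23, was listed at 0, 0 and 0.0846 FPKM in WT hearts, against 0.569, 0.0545 and 0.130 FPKM in KO hearts. The groups overlapped, since KO replicate 2 lay below WT replicate 3. At these low levels the gene missed the filter and was not tested.

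Nek7, which encodes a partner of the NLRP3 inflammasome, took 2 levels that ran across the genotypes. It stood at 6.10, 20.2 and 19.5 FPKM in WT replicates 1 to 3 and at 21.4, 6.66 and 6.65 FPKM in KO replicates 1 to 3.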
